A study of Mus musculus with 11 samples.

Results

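Pericentral hepatocyte genes and response genes of the Wnt pathway were followed in mouse livers in which an active form of the transcriptional coactivator YAP was switched on for 3 or 7 days. The 10 genes were chosen by name, as Glul, Slc1a2, Rhbg, Oat, Axin2, Lgr5, Tbx3, Rnf43, Znrf3 and Lect2, out of 20893 genes in the deposited table. All 10 were among the 14244 genes tested. Whole livers of 11 C57BL/6 mice were measured by bulk RNA-seq of total RNA, with 1 library per mouse. The 4 control mice carried ROSA26-rtTA-IRES-EGFP without a YAP transgene (WT) and received doxycycline food for 7 days. The induced mice carried ROSA26-rtTA-IRES-EGFP and tetYAP, and 4 of them received doxycycline for 3 days and 3 for 7 days. Per the study's methods, the induced animals also carried Alb-CRE: Cre driven by the albumin promoter, which is active in hepatocytes, releases the rtTA activator, and the transgene encodes the S127A form of YAP. Whether the control mice carried Alb-CRE is not stated in the labels, and no control induced for 3 days was analysed here.

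In the liver lobule, blood flows from the portal triads to the central vein, and hepatocytes along this path carry out different tasks. Endothelial cells of the central vein secrete Wnt ligands and R-spondin 3, which keep beta-catenin active in the hepatocytes around the vein. These cells make glutamine from ammonia and take up glutamate and ammonium, whereas urea synthesis and gluconeogenesis prevail near the portal triads. Several Wnt response genes, among them Axin2, Rnf43, Znrf3 and Notum, encode inhibitors of the pathway itself, and Lgr5 encodes a receptor for R-spondins.

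At 7 days 5.77% of all 14244 tested genes were called lower than in controls and 18.0% higher. Of the 10 genes, 7 were lower after 7 days of YAP induction and none was higher. The genes that fell were Slc1a2, Rhbg, Oat, Glul, Lgr5, Tbx3 and Lect2, and their mean levels at 7 days were between 1.74% (Slc1a2) and 29.1% (Glul) of control. Axin2 and Znrf3 had lower means that did not pass the test, and the mean of Rnf43 at 7 days was 109% of control. After 3 days none of the 10 passed the test. Calls required both an adjusted p (Benjamini-Hochberg) below 0.01 and a log2 fold change beyond 0.5 in size, from limma fitted to log2(eRPKM + 0.5) of all tested genes. The unit eRPKM gives exonic reads per kilobase relative to library size, so it compares levels per length between genes and shares of a library between livers. Fold changes on the log2(eRPKM + 0.5) scale understate the change of low genes.

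Depth was 1251396 to 5495697 reads on genes in control libraries, 2660233 to 3681416 in 3-day libraries and 5312486 to 5941357 in 7-day libraries. By Xist and Ddx3y, the females were 2 of 4 control mice, 2 of 4 3-day mice and 3 of 3 7-day mice. Controls 1 and 2 and 7-day liver 2 stood apart, with 17392, 18036 and 19280 genes above 0, against 14630 to 15809 in the other libraries. The labels of 3-day livers 1 and 4 and of 7-day liver 2 end in the suffix MF, which is not explained. No control label has this suffix. In each library the highest read density of any gene was 1320 to 1549 reads per kilobase, although depth differed 4.75-fold. The 8 hepatocyte marker genes were detected, with a summed level of 1410 to 3890 eRPKM in control, 1710 to 2170 in 3-day and 1110 to 1200 in 7-day livers. Alb among them had 2417 to 3102 reads in controls and 2840 to 2934 at 7 days. Its read density was 1183 (control 4) to 1518 (control 2) reads per kilobase, close to the highest of any gene. The part of depth in these sums was not tested. Mouse Yap1 was 18.2 ± 3.1 eRPKM in controls (SD, n = 4), 16.8 ± 1.83 at 3 days (n = 4) and 18.4 ± 0.862 at 7 days (n = 3). The sources used here do not say whether reads of the transgene are counted in Yap1, so this gene checks no label. Fewer cells of a type and less RNA per cell cannot be told apart in these bulk samples.

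On mm9, GENCODE M1 places Glul at chr1:155747074-155756853, Slc1a2 at chr2:102498816-102630941, Rhbg at chr3:88046796-88091132, Oat at chr7:139749158-139768081 and Lect2 at chr13:56643821-56649899. Axin2 lies at chr11:108781663-108812097, Lgr5 at chr10:114887367-115024836, Tbx3 at chr5:120120678-120134733, Rnf43 at chr11:87476224-87549041 and Znrf3 at chr11:5176327-5344850. Each level sums reads over the exons of the gene. Exons of Glul overlap those of 5830403L16Rik and exons of Tbx3 those of Gm2301, both on the other strand, and reads of such pairs cannot be told apart without strand information.

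Upstream sequences of the members were read from RefSeq promoters (build GRCm38.p6), which held 6 of the 10 genes, and are shown because the members that fell include targets of beta-catenin and because YAP acts through TEAD factors. The 250 bases before each RefSeq start were searched on both strands for the TCF/LEF motif ATCAAAG, the TEAD motif GGAATG and the HNF4 motif CAAAGTCC. These starts gave 7 windows for the 6 genes and were not matched to the mm9 gene starts above. A window, that of Slc1a2 included, can thus lie before an internal start of its gene. The letters of the TCF/LEF and HNF4 motifs share the run CAAAG, so a match to one can overlap a match to the other. In the sequences printed 5′ to 3′ on the strand of the gene, capitals mark matches to the TCF/LEF or the TEAD motif, and CATTCC is a TEAD match on the other strand.
Slc1a2 (chr2:102706188-102706437, plus strand): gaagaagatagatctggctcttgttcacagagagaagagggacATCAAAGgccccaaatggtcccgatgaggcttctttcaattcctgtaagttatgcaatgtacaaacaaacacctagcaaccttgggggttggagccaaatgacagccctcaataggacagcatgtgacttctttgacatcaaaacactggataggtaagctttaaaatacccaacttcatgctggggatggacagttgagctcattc
Lect2 (chr13:56548539-56548788, minus strand): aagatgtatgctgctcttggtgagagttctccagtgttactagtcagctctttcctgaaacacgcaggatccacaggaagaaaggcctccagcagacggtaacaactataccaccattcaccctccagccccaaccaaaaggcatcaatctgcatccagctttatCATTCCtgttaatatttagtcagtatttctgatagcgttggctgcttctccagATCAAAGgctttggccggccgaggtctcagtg
Oat (chr7:132576399-132576648, minus strand): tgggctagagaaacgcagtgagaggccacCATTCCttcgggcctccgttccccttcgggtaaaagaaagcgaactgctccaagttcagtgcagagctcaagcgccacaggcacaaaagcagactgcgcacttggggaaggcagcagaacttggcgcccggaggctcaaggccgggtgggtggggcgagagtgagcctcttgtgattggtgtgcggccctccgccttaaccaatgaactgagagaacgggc
Axin2 (chr11:108920099-108920348, plus strand): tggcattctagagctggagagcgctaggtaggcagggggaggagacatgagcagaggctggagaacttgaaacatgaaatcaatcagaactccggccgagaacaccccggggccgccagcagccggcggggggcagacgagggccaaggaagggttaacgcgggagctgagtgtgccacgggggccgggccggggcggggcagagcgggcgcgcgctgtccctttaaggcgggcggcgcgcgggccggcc
A TCF/LEF match was found in Slc1a2 (bases -207 to -201, counted back from the start) and in Lect2 (bases -32 to -26). TEAD matches were found in Oat (bases -221 to -216) and in Lect2 (bases -85 to -80). Axin2, a widely used reporter of Wnt signalling, had no match in this window, and neither did Glul or the windows of Rnf43. Of 32851 RefSeq windows of this length, 3.21% held the TCF/LEF motif, 12.6% the TEAD motif and 1.2% the HNF4 motif, which no member's window held. These matches are a description of the letters, not of sites used in the liver.

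Glutamine synthesis and the handling of its substrates were led by Glul, which encodes glutamine synthetase, the enzyme confined to the hepatocytes next to the central vein. Glul was at 167, 189, 298 and 319 eRPKM in the 4 controls. It was at 192, 186, 167 and 178 eRPKM in the 3-day livers and at 69.6, 74.9 and 67.6 eRPKM in the 7-day livers. All 7-day livers were below all controls and all 3-day livers, whereas controls 1 and 2 lay within the 3-day range. The log2 fold change at 7 days against control was -1.72 (SE 0.21; limma adjusted p = 6.18e-05), and at 3 days it was -0.38 (SE 0.20; adjusted p = 0.474). Control 2, the deepest control with 5495697 reads, had 189 eRPKM, while the 7-day livers at 5312486 to 5941357 reads had 67.6 to 74.9. Read density of Glul ran from 370 to 1070 reads per kilobase, where the limit over all genes was 1320 to 1549, and the controls with fewer reads had the higher levels. With the 2 deepest controls only, its 7-day log2 fold change was -1.33 (adjusted p = 0.000152). The part of depth in the higher levels of controls 3 and 4 was not tested.

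Oat encodes ornithine aminotransferase, a mitochondrial enzyme of pericentral glutamate metabolism. It was at 212, 174, 223 and 364 eRPKM in controls, at 238, 141, 133 and 191 in 3-day livers and at 49.6, 38.2 and 43.2 in 7-day livers. The 7-day livers were again below every other liver, and the 3-day livers overlapped the controls. On the log2 scale the change at 7 days was -2.41 (SE 0.26; limma adjusted p = 2.4e-05), against -0.45 at 3 days (SE 0.24; adjusted p = 0.48). Oat was also a high gene, with 234 to 984 reads per kilobase, and its 7-day value with the 2 deepest controls only was -2.13.

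Slc1a2, which encodes the glutamate transporter GLT-1, showed the largest fall of the 10 genes. Controls had 66.1, 82.3, 68.7 and 62.5 eRPKM, 3-day livers 58.3, 40.1, 41.2 and 49.0, and 7-day livers 0.795, 1.80 and 1.04. The groups did not overlap at either time. The mean at 7 days was 57.6-fold lower than in controls, and it rested on 53, 133 and 69 reads in the 7-day livers against 972 to 5630 in controls. The fitted log2 fold change at 7 days was -5.40 (SE 0.21; limma adjusted p = 1.51e-08), second among all tested genes by adjusted p. At 3 days the mean was 67.4% of control and the log2 fold change was -0.57 (SE 0.19), which did not pass the test over all genes (adjusted p = 0.249). Exons of Slc1a2 overlap those of Gm13872 on the other strand.

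Rhbg encodes an ammonium transporter of the hepatocyte membrane. It was at 4.53, 9.98, 6.35 and 8.02 eRPKM in controls and at 3.58, 4.08, 3.89 and 13.1 in 3-day livers, where liver 4 stood far above the other 3. The 7-day livers had 0.267, 0.321 and 0.360 eRPKM, which are only 3, 4 and 4 reads. The counting interval (95%, exact Poisson) of the highest 7-day value was 0.098 to 0.921 eRPKM, below the lowest control. The log2 fold change at 7 days was -3.19 (SE 0.40; limma adjusted p = 6.77e-05). At 3 days it was -0.37 (SE 0.37; adjusted p = 0.728), and without 3-day liver 4 it was -0.78 (adjusted p = 0.388). Exons of Rhbg overlap those of 1700021C14Rik on the same strand.

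**Figure D1:**
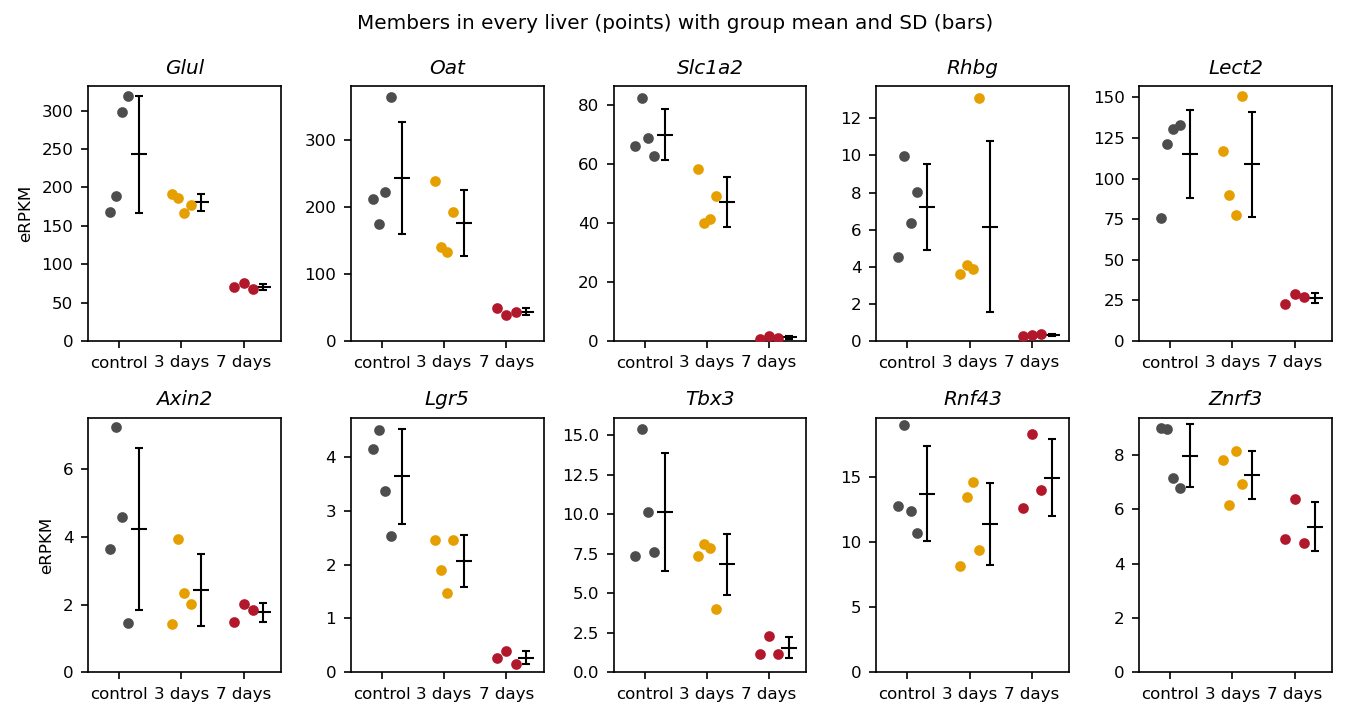
Level in eRPKM of the 10 genes, 1 panel per gene with its own linear axis from 0. Points are livers (4 control, 4 at 3 days, 3 at 7 days), and the bars beside them give the group mean and SD. The 7-day points lie below all control points for 8 genes, and for Axin2 and Rnf43 they fall within the control range.

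Lgr5, Tbx3, Axin2, Znrf3 and Rnf43 are described next. Lect2, described after them, is also induced by beta-catenin, so these 5 are not all the response genes among the 10. Lgr5 and Tbx3 fell at 7 days, and Axin2, Znrf3 and Rnf43 did not pass the test. Over all tested genes 5.77% were called lower at 7 days. Lgr5 was at 4.15, 4.49, 3.36 and 2.53 eRPKM in controls, at 2.46, 1.91, 1.46 and 2.45 in 3-day livers and at 0.262, 0.394 and 0.154 in 7-day livers. Every 3-day liver was below every control and every 7-day liver was below every 3-day liver. The 7-day values rested on 12, 20 and 7 reads. The log2 fold change was -2.41 at 7 days (SE 0.27; limma adjusted p = 3.16e-05) and -0.68 at 3 days (SE 0.25; adjusted p = 0.282), and the mean at 7 days was 13.4-fold lower than in controls. The 7-day log2 fold change ranged from -3.83 to -1.85 over the other settings tried, and it was called in each of them.

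Tbx3 encodes a T-box repressor that is a target of beta-catenin in liver. It was at 7.40, 15.4, 10.2 and 7.63 eRPKM in controls, at 7.38, 8.10, 7.89 and 3.99 in 3-day livers and at 1.18, 2.31 and 1.19 in 7-day livers. The 7-day livers did not overlap the others, and 3-day liver 4 was the lowest of its group. Its log2 fold change was -2.36 at 7 days (SE 0.32; limma adjusted p = 0.000134) and -0.52 at 3 days (SE 0.30; adjusted p = 0.511).

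Axin2 encodes a scaffold of the complex that degrades beta-catenin. It was at 3.65, 7.23, 4.60 and 1.45 eRPKM in controls, at 1.44, 3.92, 2.33 and 2.03 in 3-day livers and at 1.48, 2.01 and 1.83 in 7-day livers. The controls overlapped both other groups, and the lowest control value, of control 4, came from 8 reads. The log2 fold change at 7 days was -0.90 (SE 0.41; 95% confidence interval -1.80 to -0.01; limma adjusted p = 0.103). It was called among female livers only (-1.47, adjusted p = 0.00654), with log2 depth as a covariate (-1.72, adjusted p = 0.00489) and after quantile normalization (-1.48, adjusted p = 0.00403). A fall of Axin2 therefore depended on the setting. Its exons overlap those of Gm11670 on the other strand.

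Rnf43 and Znrf3 encode related ubiquitin ligases of the cell membrane that remove Frizzled receptors. Rnf43 was at 12.8, 19.0, 12.4 and 10.7 eRPKM in controls, at 8.14, 13.4, 14.6 and 9.41 in 3-day livers and at 12.6, 18.3 and 14.0 in 7-day livers, and the 3 groups overlapped. At 7 days its log2 fold change was 0.14 (SE 0.25; 95% confidence interval -0.40 to 0.67; limma adjusted p = 0.696). The interval covers changes in either direction, and the sign turned in 6 of 23 other settings, among them size factors (-0.12) and quantile normalization (-0.28). Znrf3 was at 9.0, 8.94, 7.15 and 6.79 eRPKM in controls, at 7.80, 6.17, 8.12 and 6.92 in 3-day livers and at 4.89, 6.39 and 4.77 in 7-day livers. All 7-day livers were below all controls, by a small margin. The log2 fold change of Znrf3 at 7 days was -0.53 (SE 0.20; limma adjusted p = 0.0502), and it passed with size factors (-0.78, adjusted p = 0.00311) and quantile normalization (-1.18, adjusted p = 0.000172).

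Lect2 encodes a secreted protein of hepatocytes that is induced by beta-catenin. It was at 75.6, 122, 131 and 133 eRPKM in controls, at 117, 89.8, 77.5 and 151 in 3-day livers and at 23.0, 29.1 and 27.1 in 7-day livers. The 3-day livers overlapped the controls, and the 7-day livers were all far below it. Its log2 fold change was -2.08 at 7 days (SE 0.24; limma adjusted p = 4.66e-05) and -0.09 at 3 days (SE 0.23; adjusted p = 0.902).

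Read against the background of all 14244 genes, 2561 (18.0%) were called higher and 822 (5.77%) lower at 7 days, while 0 of the 10 genes were called higher and 7 lower. With median-ratio size factors the calls over all genes were 1951 higher and 1254 lower, and after quantile normalization 1857 higher and 1821 lower. The median log2 fold change was -2.22 over the 10 genes and 0.26 over all tested genes, and these medians were -2.44 and 0.03 with size factors and -2.15 and -0.08 after quantile normalization. All 7-day livers were below all controls for 8 of the 10 genes (the 7 called genes and Znrf3) and for 13.3% of all tested genes. At 3 days 6 genes in all were called higher (0.0421%) and none lower (0.0%) by limma, with 1718 genes at an unadjusted p under 0.05. Limma-voom on reads recovered from the values called 1 gene. None of the 10 genes was called at 3 days by either tool, and 2 had an unadjusted p under 0.05 in limma. The 10 log2 fold changes at 3 days were all negative, with a median of -0.41 against 0.02 over all tested genes. All 3-day livers were below all controls for 2 of the 10 genes, Slc1a2 and Lgr5, and for 2.25% of all tested genes.

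**Figure D2:**
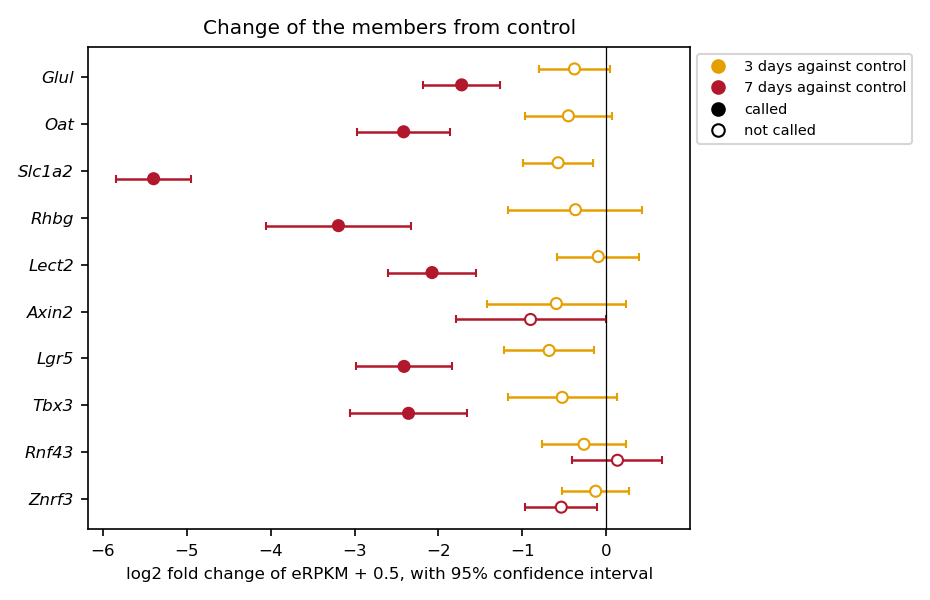
Log2 fold change of eRPKM + 0.5 against control for the 10 genes (points) with 95% confidence intervals (lines), at 3 days (orange) and 7 days (red). Filled points passed both call limits; the 7 filled points, all at 7 days, run from -5.40 for Slc1a2 to -1.72 for Glul.

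Between 3 and 7 days the same 7 genes fell, and none of the 10 rose. Over all genes 14.0% were called higher and 5.31% lower in this comparison, and the median log2 fold change of the 10 genes was -1.78. Those calls over all genes were 1516 higher and 1181 lower with size factors, and 1436 higher and 1430 lower after quantile normalization. Slc1a2 fell by 4.82 on the log2 scale between the times (limma adjusted p = 6.13e-08) and Rhbg by 2.83 (adjusted p = 0.000211). The smallest of the 7 changes was that of Glul, which fell by 1.35 (adjusted p = 0.000469). Among female livers only, Tbx3 no longer passed (log2 fold change -1.62, adjusted p = 0.0163). The comparisons of 3 and of 7 days with control share the same 4 controls, which cancel in the comparison between the times.

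The order of the genes by level per length changed in the 7-day livers. In controls Glul (243 ± 76.1 eRPKM, SD, n = 4) and Oat (243 ± 83.2) were highest and did not differ beyond their spread, followed by Lect2 (115 ± 26.8) and Slc1a2 (69.9 ± 8.64), whose ranges overlapped. Rnf43 (13.7 ± 3.65), Tbx3 (10.2 ± 3.72), Znrf3 (7.97 ± 1.16) and Rhbg (7.22 ± 2.33) formed a group in which neighbours overlapped, and so did Axin2 (4.23 ± 2.40) and Lgr5 (3.63 ± 0.875). At 7 days Glul (70.7 ± 3.77, n = 3), Oat (43.7 ± 5.73) and Lect2 (26.4 ± 3.08) kept their places without overlap. Rnf43 (14.96 ± 2.96) and Znrf3 (5.35 ± 0.902) came next. Slc1a2 (1.21 ± 0.522) then lay among Axin2 (1.77 ± 0.273) and Tbx3 (1.56 ± 0.652), whose values overlapped it, and Rhbg (0.316 ± 0.0464) and Lgr5 (0.270 ± 0.120) were lowest and overlapped each other.

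Ratios within a liver do not depend on the factor that scales its library, but genes of unlike level can differ with depth. Between control 4 (fewest reads) and control 2 (the deepest control), the median log2 difference was -0.39 for genes at 10 to 100 eRPKM and 0.77 at 100 to 300. The log2 ratio of Slc1a2 to Glul was -2.35 in control 4 and -1.20 in control 2. The part of depth in the ratios was not tested. For 5 ratios, chosen after the values were seen, livers at both times were compared with controls in 10 exact two-sided permutation tests. The log2 ratio of Slc1a2 to Glul was -1.75 ± 0.567 in controls (SD, n = 4) and -5.95 ± 0.538 at 7 days (n = 3), a difference of -4.20. That of Lgr5 to Rnf43 went from -1.92 ± 0.215 to -5.88 ± 0.544, a difference of -3.96. The differences for Lgr5 to Axin2, Axin2 to Rnf43 and Znrf3 to Rnf43 at 7 days were -2.77, -1.19 and -0.72. In each of the 5 ratios all 7-day livers lay below all controls. The exact p was 0.0571, the smallest that 4 against 3 livers allow in this test (0.114 after adjustment over the 10 tests). The adjustment does not cover the choice of pairs from values already seen, so these p-values are descriptions and add no support to the single-gene results. At 3 days the differences were between -0.53 and 0.14, with overlapping groups and exact p between 0.31 and 0.83.

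Because the 7-day group held no male, the comparison was repeated without the male mice. Among the female livers (2 control, 2 at 3 days and 3 at 7 days), 8 of the 10 genes were called lower at 7 days, the 7 above and Axin2. That fit called 2128 of all tested genes at 7 days against control, higher and lower together. Slc1a2 was at -5.51 and Glul at -1.74 on the log2 scale in that comparison, with limma adjusted p of 1.27e-05 and 0.000561. Without controls 1 and 2 and 7-day liver 2, the libraries with most genes above 0, the same 7 genes were called, with log2 fold changes from -5.54 (Slc1a2) to -2.16 (Glul). With log2 depth as a covariate the 7-day log2 fold changes of Slc1a2 and Glul were -5.50 and -1.32.

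**Figure D3:**
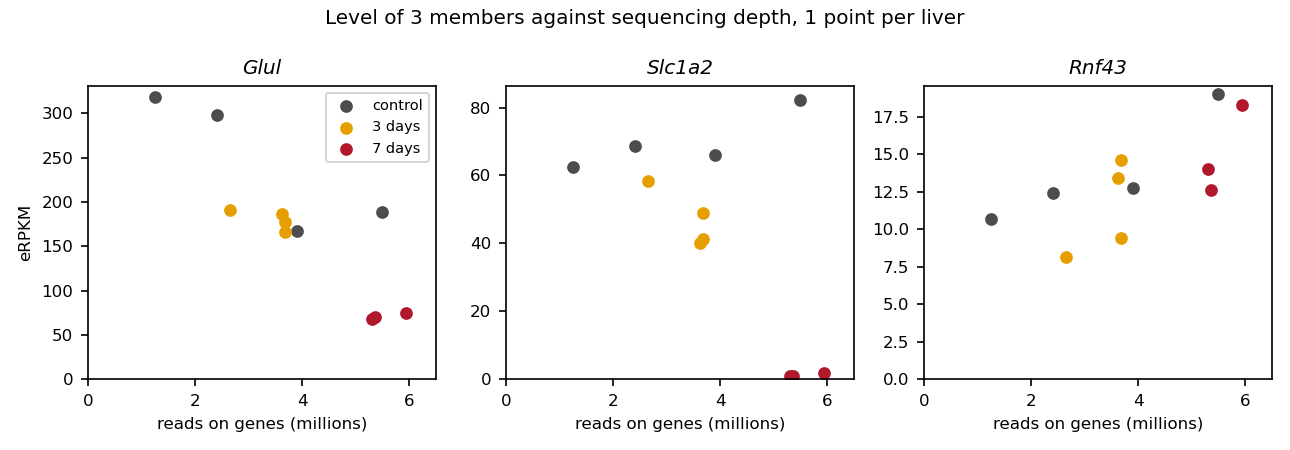
Level in eRPKM (vertical axes from 0) of Glul, Slc1a2 and Rnf43 against reads on genes, 1 point per liver, coloured by group. Glul is higher in the 2 controls with fewest reads (298 and 319 eRPKM) than in the 2 deepest (167 and 189), and for Glul and Slc1a2 the 7-day livers lie below control 2, which has a like depth.

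Other genes of the pericentral zone moved with the 10. Of 22 further pericentral genes, all of them tested, 13 were called lower and 1 higher at 7 days, and the median log2 fold change was -1.55. Over all tested genes 5.77% were called lower and 18.0% higher. Cyp1a2, a drug-metabolizing cytochrome P450, had 193 ± 44.3 eRPKM in controls (SD, n = 4) and 21.2 ± 17.1 at 7 days (n = 3; log2 fold change -3.43, limma adjusted p = 4.8e-05). Cyp2a5 (-3.29) and Cyp2c29 (-3.22) had the next largest falls, and Cyp2e1, which oxidizes ethanol, went from 446 ± 237 to 100.3 ± 8.75 eRPKM (-2.0, adjusted p = 0.000329). Controls had 239 to 769 eRPKM of Cyp2e1 from 1721 to 2353 reads, and the 7-day livers had 968 to 1029 reads. The part of depth in the falls of this list was not tested. The gene called higher was Gstm2, a glutathione transferase, which rose from 61.7 to 134 eRPKM (1.14, adjusted p = 0.00975) and was named after its value was seen. The other 8 were not called, and at 3 days none of the 22 was.

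Lower levels at 7 days were not limited to the pericentral zone. Of 18 periportal genes 11 were called lower and none higher at 7 days, against 5.77% lower and 18.0% higher over all tested genes. Their median log2 fold change was -1.09 (-1.35 with size factors, -0.65 after quantile normalization). Hsd17b6 (-3.23), a steroid dehydrogenase, Igfbp2 (-2.80), a binding protein of insulin-like growth factors, and Hal (-2.44), which degrades histidine, had the largest falls. Hal went from 124 ± 24.1 to 22.3 ± 3.29 eRPKM (limma adjusted p = 4e-06). Cdh1 (E-cadherin) was at 23.7 ± 10.3 eRPKM in controls and 21.8 ± 5.59 at 7 days. Of the 8 hepatocyte markers 2, Ttr (-1.40) and Tat (-0.88), were called lower. The median of these markers was -0.89 (-1.16 with size factors, -0.26 after quantile normalization). Ttr had 678 to 1195 reads in controls and 663 to 721 at 7 days, and Tat had 1321 to 2777 and 1883 to 2014. The part of depth in the lower levels of periportal genes and hepatocyte markers was not tested. No test of the difference between the zones was made.

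**Figure D4:**
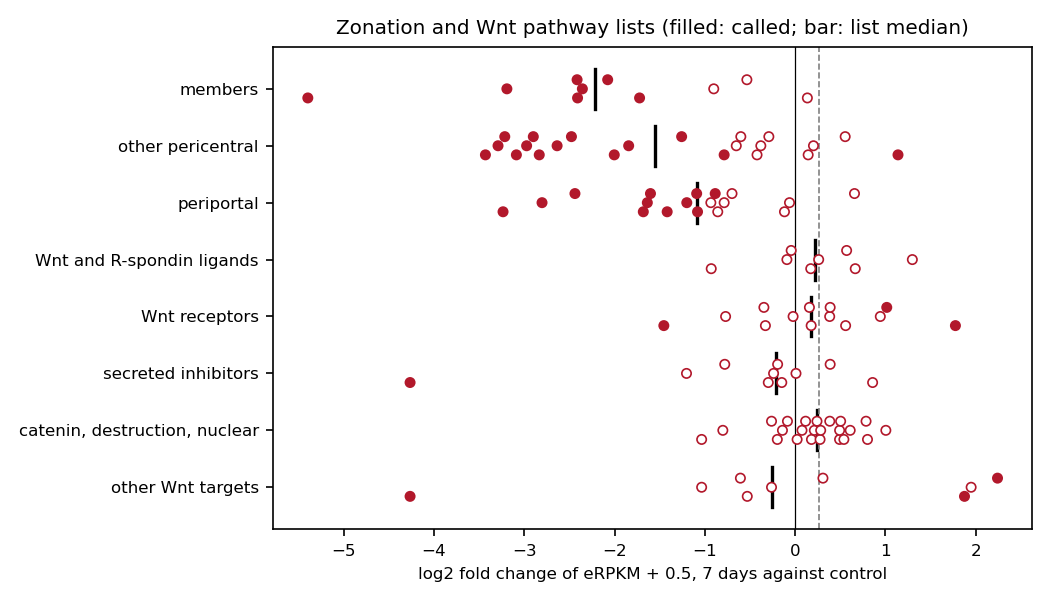
Log2 fold change of eRPKM + 0.5 at 7 days against control for each tested gene (points) of the 10 members and 7 further lists, with filled points for called genes and a black bar at each list's median. The grey dashed line is the median of all tested genes (0.26); the medians of the members (-2.22), other pericentral (-1.55) and periportal (-1.09) lists lie below it, and those of the Wnt ligand, receptor and catenin lists lie within 0.1 of it.

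The Wnt ligands and R-spondins were mostly low. Of 23 genes, 15 had too few reads to be tested, and of the 8 tested none was called at either time. Over all tested genes 18.0% were called higher and 5.77% lower at 7 days. Wnt2, made by endothelial cells around the central vein, was at 4.14 ± 2.45 eRPKM in controls (SD, n = 4), 6.08 ± 4.37 at 3 days (n = 4) and 3.74 ± 1.33 at 7 days (n = 3; log2 fold change -0.04, limma adjusted p = 0.958). Wnt9b, from the same cells, was at 0.677 ± 0.547, 0.756 ± 0.212 and 1.14 ± 0.145 eRPKM (0.57, adjusted p = 0.173). Rspo3 was at 8.31 ± 2.01 eRPKM in controls and 7.82 ± 3.02 at 3 days, and at 4.04 ± 0.183 at 7 days, where the log2 fold change of -0.93 did not pass (adjusted p = 0.0234). Its 7-day livers, at 3.85 to 4.22 eRPKM, were all below the controls, at 6.15 to 10.97. Wnt5b, a non-canonical ligand named after its values were seen, differed in the other direction and did not pass either (1.30, adjusted p = 0.0186), with controls at 2.79 to 5.98 and 7-day livers at 7.87 to 13.9 eRPKM.

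Of 13 tested Wnt receptors 1 was called lower and 2 higher at 7 days, near the shares over all genes (5.77% and 18.0%). Lgr4, the R-spondin receptor of hepatocytes, had 57.2 ± 5.91 eRPKM in controls and 57.0 ± 8.34 at 3 days, and fell to 20.5 ± 1.51 at 7 days (log2 fold change -1.45, limma adjusted p = 1.9e-05). Ror1, a receptor of non-canonical Wnt signalling, rose from 2.24 ± 1.14 to 8.36 ± 1.66 eRPKM (1.77, adjusted p = 0.00267). Fzd7, a Frizzled receptor, rose from 14.6 ± 3.61 to 30.0 ± 8.30 eRPKM (1.01, adjusted p = 0.00419). Of 10 tested secreted inhibitors 1 was called, Notum, a Wnt deacylase and response gene. Notum was at 26.4 ± 10.1 eRPKM in controls, 18.2 ± 6.42 at 3 days and 0.848 ± 0.287 at 7 days (-4.26, adjusted p = 3e-06).

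None of 23 tested genes of beta-catenin, its destruction complex and its nuclear partners was called at 7 days by limma, against 18.0% higher and 5.77% lower over all tested genes. Ctnnb1, which encodes beta-catenin, was at 112 ± 14.6 eRPKM in controls, 117 ± 13.2 at 3 days and 101 ± 6.18 at 7 days (log2 fold change -0.14, limma adjusted p = 0.483). The list's median was 0.24 and turned to -0.01 with size factors and -0.30 after quantile normalization, so it has no fixed direction. Of 9 tested further Wnt targets 1 was called lower, Notum, and 2 higher, near the shares over all genes. Cd44, a hyaluronan receptor, went from 7.56 ± 2.79 to 36.2 ± 5.75 eRPKM (2.24, adjusted p = 4.9e-05), and Tnfrsf19 from 4.97 ± 1.36 to 19.3 ± 3.87 (1.88, adjusted p = 8.5e-05). Nkd1, an inhibitor that is induced by Wnt, was at 2.65 ± 1.12 and 1.47 ± 0.116 eRPKM (-0.61, adjusted p = 0.132).

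Markers of other cell types were counted at 7 days against the 18.0% of all tested genes called higher and the 5.77% called lower. The shares for biliary, lymphocyte, endothelial and central vein markers were near that background. Of 5 measured Kupffer cell and macrophage markers 3 (Cd68, Vsig4 and Cd5l) were called higher at 7 days, and the summed level was 213 to 433 eRPKM in controls, 277 to 499 in 3-day livers and 703 to 796 in 7-day livers. The 5 proliferation markers, Ccnb1, Cdk1 and Mki67 among them, were all called higher at 7 days, with sums of 6.75 to 17.8, 14.2 to 102 and 98.9 to 151 eRPKM. Of 8 endothelial markers 2 were called higher, Lyve1 and Cdh5, and the sums were 146 to 257, 171 to 309 and 236 to 267 eRPKM. Among 6 markers of central vein endothelium 1, Thbd, was called higher, and the sums were 15.3 to 31.2, 15.6 to 33.0 and 28.5 to 38.0 eRPKM. Without Thbd, which went from 4.24 ± 1.11 to 20.6 ± 5.40 eRPKM, the sums of the other 5 were 11.4 to 25.9, 11.5 to 25.6 and 10.4 to 14.1 eRPKM. Among further lists, 1 of 6 tested biliary markers, Krt7, and 1 of 6 lymphocyte markers, Ptprc, were called higher and 1 of 7 stellate cell markers, Reln, was called lower. Biliary sums were 42.9 to 53.4, 44.6 to 87.1 and 67.8 to 123 eRPKM, lymphocyte sums 7.11 to 14.6, 7.53 to 13.5 and 28.9 to 36.6, and stellate sums 179 to 234, 162 to 317 and 128 to 141. No marker list had a gene at 0 in every liver. The part of these cell types in the falls of the 10 genes was not tested.

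Across the 11 livers the levels of Glul were most like those of Acsl1 and Lonp2 (Pearson r of 0.980 for both), Pygl (0.978), Itih1 (0.973) and Cyp2e1 (0.972), out of 12568 genes with a mean of at least 1 eRPKM. Genes whose levels were among the most like those of Lect2 were Lipc (0.988), Ebpl (0.984), Cyp2c37 (0.975) and Gm4952 (0.975). Axin2 was most like Setd4 (0.924), Naa35 (0.919), Sh3pxd2a (0.910), Cyp4f13 (0.900) and Atg16l1 (0.897), none of which was called at 7 days. With Glul, Oat had an r of 0.955, Lect2 0.938 and Slc1a2 0.929, whereas Axin2 had 0.351 and Rnf43 -0.371. These correlations are descriptions over livers that share group and depth.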

How the data were processed

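Total RNA of homogenized livers from 11 mice was made into TruSeq RNA v2 libraries, 1 per mouse. The authors aligned read pairs to mm9 with TopHat2 2.0.8 and counted reads on genes, and the submitters' notes list featureCounts 1.4.5-p1. Duplicate handling is not given in the sources used here. The deposited values are eRPKM, a kind of RPKM computed by the authors: reads on exons per kilobase, scaled to each library. The authors' columns for their DESeq2 comparison of 7 days with control (average signal, fold change on the log2 scale, p-value) were not used.

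All 177553 values above 0 (100%) were within 0.1 of a whole multiple of 1 read, which gave the reads behind each value. The 14244 genes that reached 0.5 eRPKM in 3 or more libraries entered 1 limma fit over the 3 groups (limma 3.58.1 in R 4.3.3, eBayes with a mean-variance trend, no covariate) on log2 values with a pseudocount of 0.5 eRPKM. Calls needed an adjusted p (Benjamini-Hochberg) below 0.01 and a fold change beyond 0.5 in size on that scale. Nothing says whether livers came from separate litters, so p-values measure the spread between these mice. Counting intervals cover counting error only.

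The members and all gene lists were chosen with earlier results of these data known. The text names all members, from every other list the 3 called genes with the largest change and a mean of at least 1 eRPKM (Notum, Lgr4, Ctnnb1, Nkd1, Wnt2, Wnt9b, Rspo3, Cyp2e1 and Cyp1a2 whatever their values), and the 5 genes most like Glul, Axin2 and Lect2, of which 1 is not reported here. 1 biliary marker was named after its value was seen. Alternatives were other pseudocounts, filters, scalings and covariates, limma-voom on the recovered reads, the 2 compared groups only, female livers only, leaving out each liver and a looser threshold; 2 were added after the values were seen (the 2 deepest controls only, and without the 3 livers with most genes above 0). Exon overlaps are from GENCODE M1 on mm9. Python 3.11.15, scipy 1.17.1 and matplotlib 3.10.9 were used.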

Additional observations from a re-analysis of the deposited data

Results flagged for a closer look

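Among the 20 sets of 4 livers examined (10 genes in controls and at 3 days), 3 had 1 liver far from the others by Dixon's gap ratio (gap to the nearest liver over the whole range), past its 95% critical value. Chance flags about 1 in 20 such sets. Rhbg in 3-day liver 4 (ratio 0.9047) was high, at 13.1 eRPKM against 3.58 to 4.08 in the other 3. Tbx3 in the same liver (0.8646) was low, at 3.99 eRPKM against 7.38 to 8.10. Lect2 in control 1 (0.8443) was low, at 75.6 eRPKM against 122 to 133. No 7-day set was examined, since it holds 3 livers.

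The change from control differed between 7 days and 3 days for 7 genes. The controls cancel in this difference, so it is the same comparison of 7 days against 3 days as given above, not a second result. The log2 difference was -1.3452 for Glul, -4.8237 for Slc1a2, -2.8262 for Rhbg, -1.9652 for Oat, -1.73 for Lgr5, -1.833 for Tbx3 and -1.9817 for Lect2. Every 7-day liver was below every 3-day liver for these 7 genes. They are the genes called in that comparison, so this lack of overlap is not a second result either. The share of all tested genes without overlap between the times was not counted.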

How the results depend on the processing

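Over all settings 7 to 9 members were called lower at 7 days against control (8 among female livers, with size factors and with log2 depth as a covariate, 9 after quantile normalization), 6 to 8 at 7 days against 3 days, and none at 3 days. No member was called higher in any setting. The called members at 7 days (Glul, Slc1a2, Rhbg, Oat, Lgr5, Tbx3 and Lect2) were called in all settings run. Of the single-gene values, the sign at 3 days turned for Glul (0.0182 with the 2 deepest controls only), Lect2 (0.1342 in that setting, and -0.2837 to 0.0523 when 1 liver was left out) and Znrf3 (0.0467 without the 3 livers with most genes above 0). Rnf43 at 7 days turned to -0.1245 with size factors, -0.2807 after quantile normalization, -0.2420 with log2 depth as a covariate, -0.0562 among female livers and -0.0763 with the 2 deepest controls only, and was -0.0134 (without 7-day liver 2) to 0.2984 when 1 liver was left out.

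Calls over all genes at 3 days against control were 6 in the reported fit. They were 3 without a filter, 12 with size factors, 0 with the 2 compared groups only, 1 with limma-voom, 16 with log2 Xist and 10 with the label suffix MF as a covariate, 1 with log2 depth, 0 with the 2 deepest controls only, 41 at a looser threshold (adjusted p below 0.05, no limit on size), and 0 to 54 when 1 liver was left out (54 without 3-day liver 1). At 7 days against control the 3383 calls became 1676 with log2 depth, 2128 among female livers, 1985 with the 2 deepest controls only, 1321 without the 3 livers with most genes above 0, 5390 at that looser threshold and 1978 to 3229 when 1 compared liver was left out (2170, 2157 and 1978 without 7-day liver 1, 2 and 3). At 7 days against 3 days the 2753 calls became 1679, 1424, 1129 and 5085 with log2 depth, female livers, without those 3 livers and at the looser threshold, and 1343 to 3683 when 1 compared liver was left out (1547, 1433 and 1343 without 7-day liver 1, 2 and 3). The causes of these moves were not tested.

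With the replicate number as a replicate block, 7 members were lower at 7 days against control and 7 at 7 days against 3 days, and the calls over all genes were 3 at 3 days and 2720 and 1981 in the other comparisons. The numbers only name the livers: same-numbered livers' deviations correlated from -0.222 to 0.269. Few reads limit Rhbg (3, 4 and 4 reads in 7-day livers), Lgr5 (7 to 20) and Axin2 (8 in control 4). The effect of the common maximum of read density on single genes was not tested.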
